A study of Homo sapiens with 30 samples.

Results

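DHA+Veh cultures of LX2 cells, which had docosahexaenoic acid (DHA) and no betacellulin, were compared with Veh+Veh cultures, which had neither. LX2 is an established human cell line derived from hepatic stellate cells in their activated state. The libraries were chosen by label: the 5 DHA+Veh and the 5 Veh+Veh libraries, 10 of the 30 in the series, matched by the experiment number that the labels give. Each experiment held 1 library of each group, so Veh+Veh 3 is the vehicle culture of experiment 3. OLA+Veh cultures (oleic acid, no betacellulin) of the same experiments served as a second reference. The DHA+BTC, OLA+BTC and Veh+BTC cultures of these experiments had betacellulin at 20 ng/ml and also entered the statistical fit. DHA and oleic acid were each given at 50 µM, carried by albumin at 20 µM. The sample labels give 72 h in medium with 1% serum as the treatment, and the protocols also describe 2 fatty acid cycles of 48 h and 96 h of fatty acid. Whether fatty acid was still present during the 72 h is not clear from them. Whether vehicle dishes had albumin is not stated. All groups share the single line, so the spread between experiments holds no spread between donors.

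DHA is a long, highly unsaturated omega-3 fatty acid, and oleic acid is a monounsaturated omega-9 fatty acid. Fatty acids bind peroxisome proliferator-activated receptors (PPARs), which switch on genes of lipid handling, and polyunsaturated ones also restrain the sterol regulatory element-binding proteins (SREBPs) that drive cholesterol and fatty acid synthesis. Hepatic stellate cells store retinoids when quiescent. In injured liver they become contractile, secrete collagen and other matrix, and release proteases, protease inhibitors and chemokines.

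RNA was measured by sequencing of transcript 3′ ends, as CPM (read counts scaled to a common library total). The DHA+Veh libraries held 1538581 to 4703635 reads and the Veh+Veh libraries 2569815 to 9490142, and DHA+Veh was the shallower of the pair in 4 of 5 experiments (exact sign-flip test, two-sided p = 0.125, where 5 pairs allow no p under 0.0625). The 10 most abundant genes took 9.42% ± 2.05 of reads in DHA+Veh and 7.57% ± 1.38 in Veh+Veh (SD, n = 5 each, exact p = 0.125). The first principal component of all 30 libraries, 42.56% of the variance, set experiments 1 and 2 (scores -85.9 to -33.94) apart from experiments 3 and 4 (39.65 to 109.3). Experiment 5 ran from -13.38 to 43.6, with DHA+Veh 5 at the top, inside the range of experiment 3. On the second component (12.94%) DHA+Veh 5 and DHA+BTC 5 lay lowest of the 30, at -81.92 and -97.19, beside -14.58 for Veh+Veh 5. A stellate or fibroblast marker set of 15 genes summed to 2018 to 5196 CPM in DHA+Veh and 2473 to 6318 CPM in Veh+Veh, with desmin (DES) at 0 in all 10 libraries. Hepatocyte markers summed to at most 2.38 CPM in DHA+Veh and 3.42 CPM in Veh+Veh, and ALB and HNF4A were at 0 in all 10. Of 14 stellate markers tested, 4 fell (ACTA2, TAGLN, THY1 and SPARC). ACTA2 and THY1 had no call under TMM or quantile scaling or by edgeR. Of all genes tested, 0.945% fell. Epithelial markers summed to 53.3 to 180.3 CPM in DHA+Veh and 38.1 to 78.6 CPM in Veh+Veh with no call among 7 tested, endothelial markers to 9.75 to 21.7 and 10.2 to 19.5 CPM, and leukocyte or macrophage markers to 18.3 to 43.7 and 13.2 to 53.3 CPM, where CD14 fell. The calls of THY1 and CD14 ended in 13 and 8 of the 15 settings that left out 1 library or experiment. The part of depth and of these markers in the results was not tested. In bulk RNA, fewer cells that express a gene and less of its RNA per cell cannot be told apart.

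With DHA, 90 genes rose and 143 fell, of 15137 tested, at an adjusted p under 0.05 (limma on log2(CPM + 1), experiment as a block), which is 1.54% of the genes. Of all genes tested, 0.595% rose and 0.945% fell, and these are the shares to set beside the list counts below. Of those calls, 209 kept a single direction across 5 of 5 experiments and 24 across 4 of 5. For all genes tested, the share with a single direction across 5 of 5 was 12%. The calls were chosen by a fit to these same experiments. Their agreement in direction thus follows in part from that choice and is not separate evidence. The DHA+Veh and Veh+Veh values did not overlap for 24 of the 233 calls and for 0.515% of all genes tested. Non-overlap given below likewise follows in part from that choice. Differences below are DHA+Veh minus Veh+Veh on the log2(CPM + 1) scale, with the SE of the fit, and folds are on that scale too. The median difference of all genes tested was -0.14, so a small fall is not set apart from the bulk of genes. Rescaling the libraries by the median of ratios moved that median to -0.05 and the calls to 114 higher and 82 lower, and quantile normalization moved them to -0.008 and 110 higher and 79 lower. With no block for the experiment only 1 gene was called. Experiments 3 to 5 alone gave 194 calls and experiments 1 and 2 alone gave 0. With so few libraries, the 0 cannot tell an absent difference from low power. In experiments 1 and 2 alone ANGPTL4 was at 5.09 (limma adjusted p = 0.84) and CXCL8 at 1.66, neither called. Leaving out 1 library gave 68 to 273 calls, with the fewest without Veh+Veh 5 and 70 without DHA+Veh 5.

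**Figure D1:**
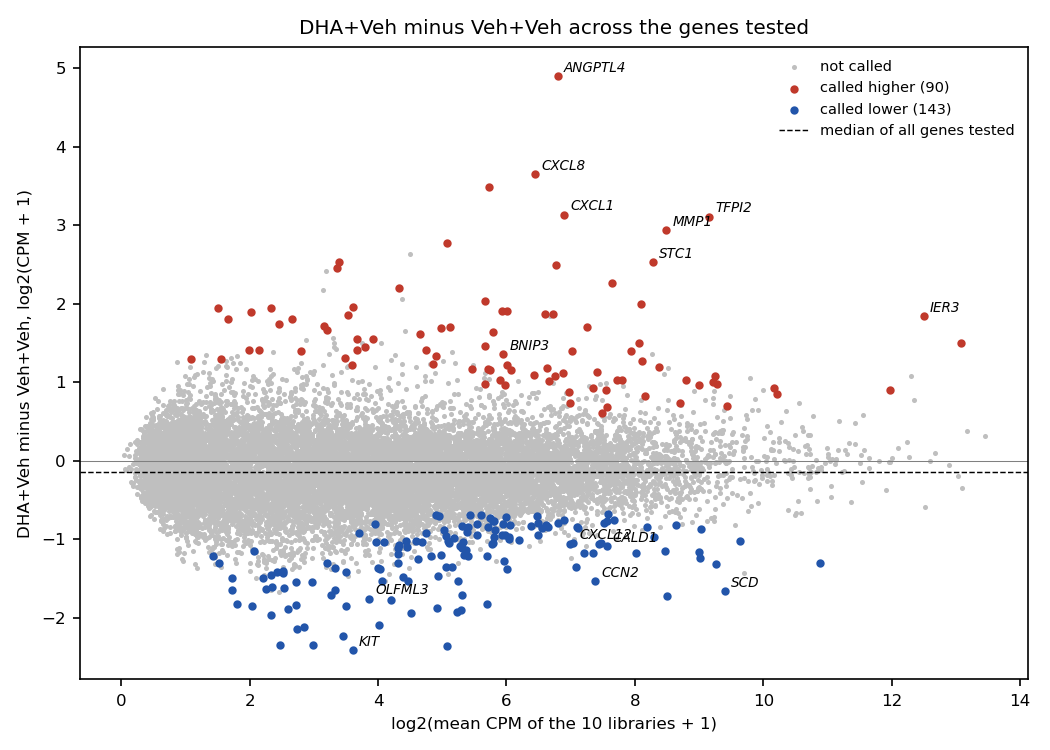
Difference of DHA+Veh minus Veh+Veh (vertical axis, log2(CPM + 1)) against mean level over the 10 libraries (horizontal axis, log2 scale), 1 point per gene tested. The 90 genes called higher are red and reach 4.90 (ANGPTL4), the 143 called lower are blue, and the dashed line is the median of all genes, -0.14.

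ANGPTL4 rose more than any other called gene that has a symbol. It encodes a secreted inhibitor of lipoprotein lipase and is a classic PPAR target. ANGPTL4 was at 107, 190.3, 126, 132 and 515 CPM in DHA+Veh 1 to 5, against 6.53, 1.37, 2.33, 13.5 and 7.7 CPM in Veh+Veh 1 to 5. The lowest DHA+Veh library stood above the highest Veh+Veh library. The log2 difference was 4.90 ± 0.45 SE (95% interval 3.98 to 5.83 on that scale, adjusted p = 8.22e-08), or 29.9-fold. PLIN2, which coats lipid droplets, also rose. PLIN2 was at 496, 362, 165, 194 and 601 CPM in DHA+Veh 1 to 5, against 105, 92.8, 128, 131 and 162 CPM in Veh+Veh 1 to 5. These groups did not overlap either, although the lowest DHA+Veh value (experiment 3) and the highest Veh+Veh value (experiment 5) were close, and the difference was 1.40 ± 0.28 SE, adjusted p = 0.00737.

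Few other members of their lists passed the test. Of 35 listed genes of fatty acid oxidation and other PPAR targets, 30 were tested: ANGPTL4 rose, UCP2 fell and 28 did not pass, with a median of -0.25, where 0.595% of all genes tested rose and 0.945% fell. CPT1A, which admits fatty acids into mitochondria, was at 539, 607, 294, 203 and 591 CPM in DHA+Veh 1 to 5, against 269, 300.4, 168, 213 and 434 CPM in Veh+Veh 1 to 5, higher in 4 of 5 experiments at 0.64 ± 0.21 SE, adjusted p = 0.124. UCP2, a mitochondrial carrier, fell at -1.21 ± 0.26 SE, adjusted p = 0.0132. PLIN2 was the single call among 14 of 21 genes of lipid droplets and triglyceride turnover (median 0.06). Leaving out 1 library or experiment at a time ended the call of PLIN2 without experiment 1 or 5 (adjusted p up to 0.0624) and of UCP2 without DHA+Veh 3 or 5, Veh+Veh 3 or experiment 3 or 5 (adjusted p up to 0.19). UCP2 was not called by edgeR.

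Genes of cholesterol synthesis and uptake, an SREBP-2 programme, were mostly lower with DHA: 24 of the 27 tested were below 0, 7 passed as falls and 0 as rises. Their median was -0.60, against -0.14 for all genes, and 4 of the 27 lay above that all-gene median. Of all genes tested, 0.945% fell. HMGCS1 encodes HMG-CoA synthase, an early enzyme of the mevalonate pathway. HMGCS1 was at 904, 828, 141, 95.3 and 80.6 CPM in DHA+Veh 1 to 5, against 1449, 1634, 314, 295 and 363 CPM in Veh+Veh 1 to 5. Both groups were higher in experiments 1 and 2 than in the rest and so overlapped, and the value was lower with DHA in each of 5 experiments (-1.32 ± 0.27 SE, adjusted p = 0.00791). ACAT2, which makes the acetoacetyl-CoA that HMGCS1 uses, was at 789, 739, 486, 464 and 247 CPM in DHA+Veh 1 to 5, against 1223, 1279, 932, 1014 and 786 CPM in Veh+Veh 1 to 5 (-1.03 ± 0.20 SE, adjusted p = 0.00674).

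Further along the pathway, mevalonate kinase, MVK (-1.18, adjusted p = 0.0239), and a late reductase of cholesterol synthesis, DHCR7 (-1.18, adjusted p = 0.0148), fell as well. INSIG1, which holds SREBPs in the endoplasmic reticulum and is itself an SREBP target, fell by 0.71 (adjusted p = 0.0483). SREBF2, which encodes SREBP-2, was at -0.45 ± 0.28 SE, adjusted p = 0.487. The INSIG1 call was lost under TMM, median-of-ratios and quantile scaling, edgeR and DESeq2, the MVK call under TMM and median-of-ratios scaling and edgeR, and the DHCR7 call under edgeR. When 1 library or experiment was left out, calls ended for HMGCS1 without DHA+Veh 5 or experiment 3, 4 or 5 (adjusted p up to 0.106) and for ACAT2 without experiment 4 or 5 (adjusted p up to 0.0749). Likewise, calls ended for DHCR7 without DHA+Veh 3 or 5, Veh+Veh 3 or 5 or experiment 3 or 5 (adjusted p up to 0.189). The call of MVK ended in 9 of the 15 leave-outs, namely those of DHA+Veh 3, 4 and 5, Veh+Veh 3, 4 and 5, and experiments 3, 4 and 5 (adjusted p up to 0.147). The call of INSIG1 ended in each of the 15 leave-outs (adjusted p up to 0.198).

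SCD, the desaturase that makes oleate from stearate, fell most among 23 genes of fatty acid synthesis and desaturation. SCD was at 559.8, 489.9, 222, 260.2 and 151 CPM in DHA+Veh 1 to 5, against 1475, 1140, 549.5, 688 and 1211 CPM in Veh+Veh 1 to 5. Each experiment showed the fall, by 3.16-fold overall (-1.66 ± 0.28 SE, adjusted p = 0.00144), and the call held in all 15 leave-outs. SCD was the single call of its list, of which 21 genes lay below 0 (median -0.44). Of the 23, 5 lay above the median of all genes tested (-0.14). None of 9 genes of LXR receptors and sterol efflux passed (median -0.16).

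**Figure D2:**
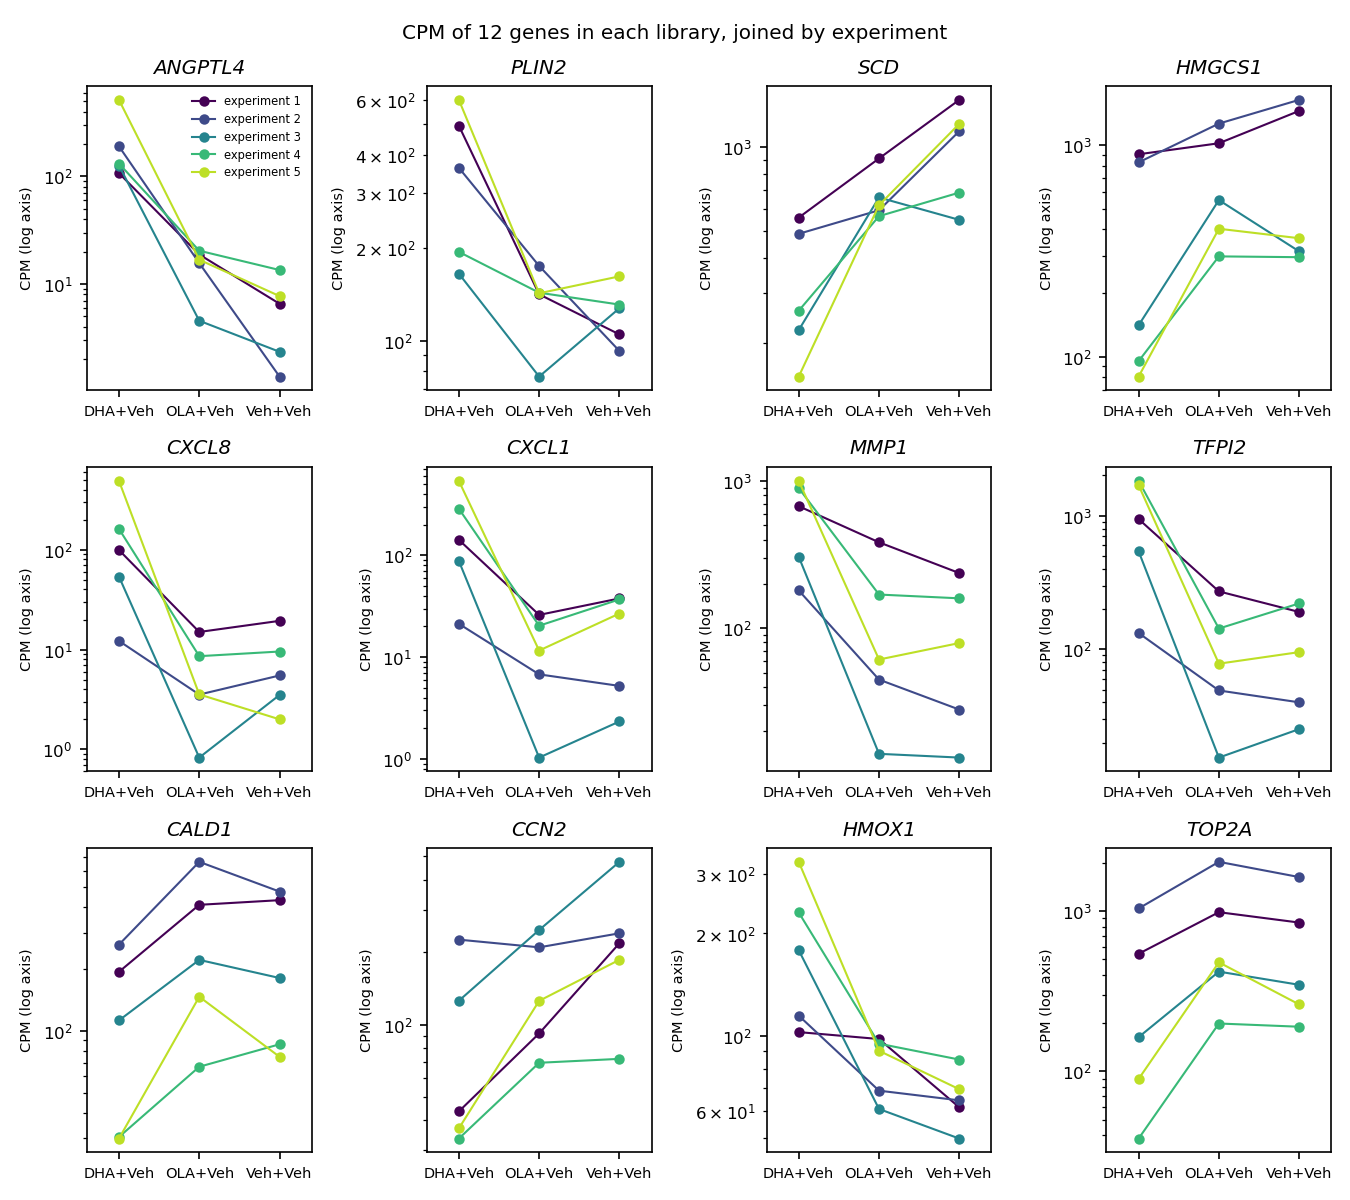
CPM (log axis) of 12 genes in each library, with DHA+Veh left, OLA+Veh in the middle and Veh+Veh right; each point is 1 library and each line 1 experiment. All 5 lines of ANGPTL4, MMP1 and CXCL8 end lower in Veh+Veh than in DHA+Veh, and all 5 lines of SCD, HMGCS1 and TOP2A end higher.

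Chemokines and cytokines held some of the largest rises. Of 29 listed genes 24 were tested: CXCL1, CXCL8, IL1B and CSF3 rose and CXCL12 fell, and the median of the list was 1.07. CXCL8 encodes interleukin-8, which attracts neutrophils, as does its relative CXCL1. CXCL8 was at 99.5, 12.2, 53.9, 162 and 491 CPM in DHA+Veh 1 to 5, against 19.4, 5.49, 3.5, 9.55 and 2 CPM in Veh+Veh 1 to 5. The range within DHA+Veh was wide, with experiment 5 highest and experiment 2 lowest, and experiment 2 of DHA+Veh lay below experiment 1 of Veh+Veh, yet within each experiment the DHA library was higher (3.65 ± 0.64 SE, adjusted p = 0.00218).

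CXCL1 was at 142, 21.3, 88.1, 287 and 539 CPM in DHA+Veh 1 to 5, against 37.7, 5.22, 2.33, 36.9 and 26.8 CPM in Veh+Veh 1 to 5. It too was higher with DHA in 5 of 5 experiments (3.13 ± 0.54 SE, adjusted p = 0.00193). IL1B, which encodes interleukin-1 beta, was at 222, 27.9, 159, 312 and 206 CPM in DHA+Veh 1 to 5, against 46.1, 6.32, 31.5, 56.9 and 16.8 CPM in Veh+Veh 1 to 5. DHA+Veh 2 stood apart at the low end of its group, and the rise was 5.65-fold (SE 0.61 on the log2 scale, adjusted p = 0.0301). CSF3, the granulocyte growth factor G-CSF, was at 0 in both libraries of experiment 2 and at 429.6 CPM in DHA+Veh 5, against 2 CPM in Veh+Veh 5 (3.48 ± 0.83 SE, adjusted p = 0.0259). IL6, another cytokine, was at 1.49, 0.348, 2.12, 11.1 and 11.1 CPM in DHA+Veh 1 to 5, against 0.948, 0.824, 1.17, 1.52 and 0.856 CPM in Veh+Veh 1 to 5, with no call (1.08 ± 0.50 SE, adjusted p = 0.307).

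CXCL12, a chemokine for progenitor cells and lymphocytes, went the other way. CXCL12 was at 86.1, 168, 42.7, 33.4 and 103 CPM in DHA+Veh 1 to 5, against 186, 269.7, 83.3, 83.1 and 245 CPM in Veh+Veh 1 to 5. It was lower with DHA in every experiment, by 2.08-fold (-1.05 ± 0.19 SE, adjusted p = 0.00218). The calls of CXCL8 and CXCL12 held in all 15 leave-outs. Single leave-outs ended calls for CXCL1 without experiment 3 (adjusted p up to 0.0694). The calls of IL1B and CSF3 ended in 10 and 11 of the 15 leave-outs, all including those of DHA+Veh 3 and 5, Veh+Veh 3, 4 and 5, and experiments 3, 4 and 5 (adjusted p up to 0.171).

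Targets and feedback genes of NF-kB, the transcription factor of inflammatory responses, rose in 5 of 20 tested members and fell in 0 (median 0.52). SOD2, the remaining listed gene, was not found under its symbol and so was not tested. Of all genes tested, 0.595% rose. ICAM1, an adhesion molecule for leukocytes, was at 84.4, 39.0, 66.0, 96.6 and 119 CPM in DHA+Veh 1 to 5, against 33.1, 10.7, 12.1, 35.8 and 47.1 CPM in Veh+Veh 1 to 5. The groups overlapped, since DHA+Veh 2 lay below Veh+Veh 5, and the rise was 1.64 ± 0.26 SE, adjusted p = 0.000637. TNIP1, a partner of the NF-kB inhibitor A20, was at 296, 186, 232, 395 and 876 CPM in DHA+Veh 1 to 5, against 162, 87.6, 82.1, 223 and 205 CPM in Veh+Veh 1 to 5, with the highest value in DHA+Veh 5 (1.27 ± 0.21 SE, adjusted p = 0.00132). The calls of ICAM1 and TNIP1 held in all 15 leave-outs. TNFAIP6, a hyaluronan-binding protein induced by inflammation, IRAK2, a kinase of interleukin-1 receptor signalling, and NFKBIZ, a nuclear IkB protein named after its values were seen, rose at 2.45, 1.67 and 1.41 (adjusted p = 0.0256, 0.0146 and 0.0466). Calls that ended in single leave-outs were those of IRAK2 without DHA+Veh 3 or 5, Veh+Veh 3 or experiment 3, 4 or 5 (adjusted p up to 0.182). The calls of TNFAIP6 and NFKBIZ ended in 8 and 14 of the 15 leave-outs, all including those of DHA+Veh 3, 4 and 5, Veh+Veh 5, and experiments 1, 3, 4 and 5 (adjusted p up to 0.196).

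The stretches before the starts of 4 of these genes are shown because each holds a short pattern of the NF-kB type. Sequences are RefSeq, GRCh38.p14, 5′ to 3′, and capitals mark GGNNNTTCC, searched on both strands.
CXCL8, chr4:73740433-73740532, plus strand: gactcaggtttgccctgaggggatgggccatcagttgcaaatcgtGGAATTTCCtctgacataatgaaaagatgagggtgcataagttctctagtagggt
CXCL1, chr4:73869270-73869369, plus strand: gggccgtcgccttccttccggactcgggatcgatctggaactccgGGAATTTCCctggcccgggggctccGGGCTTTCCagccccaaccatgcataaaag
ICAM1, chr19:10270889-10270988, plus strand: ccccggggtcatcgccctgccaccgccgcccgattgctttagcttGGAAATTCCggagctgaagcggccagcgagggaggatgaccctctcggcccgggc
NFKBIZ, chr3:101827740-101827839, plus strand: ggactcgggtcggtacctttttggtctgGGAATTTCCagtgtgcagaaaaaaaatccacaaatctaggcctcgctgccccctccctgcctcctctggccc
In the 250 bases before the start, this pattern stood in 4 of the 9 called chemokine, cytokine and NF-kB genes that had a promoter sequence, in 22 of all 40 such list members, and in 17.1% of 35116 promoters. For the cholesterol list, the sterol element core CACCCCAC stood in 0 of the 4 called genes that had a sequence, in 1 of 21 list members and in 2.43% of all promoters. Each pattern was searched by itself, and matches of both may share letters. A match is a run of letters and not a measured binding site.

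The matrix-degrading collagenase MMP1 rose in all 5 experiments. MMP1 was at 674, 180.5, 305, 894 and 1001 CPM in DHA+Veh 1 to 5, against 237, 28.0, 13.2, 159.5 and 79.3 CPM in Veh+Veh 1 to 5. Experiments 1 and 4 had the highest vehicle values, so the groups overlapped, and the difference was 2.94 ± 0.39 SE, adjusted p = 0.000116, or 7.67-fold. MMP3 (stromelysin-1), which cleaves several matrix proteins and activates other proteases, was near the detection floor in Veh+Veh, where 0 reads in libraries 2 and 3 allow up to 0.824 and 1.17 CPM (3 reads, counting error only). MMP3 was at 9.99, 1.39, 2.12, 32.6 and 42.2 CPM in DHA+Veh 1 to 5, against 0.632, 0, 0, 4.99 and 0.856 CPM in Veh+Veh 1 to 5. It rose in 5 of 5 experiments (2.54 ± 0.58 SE, adjusted p = 0.0207). The remaining 10 of 12 metalloproteinases tested did not pass (median 0.38).

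Of 13 tested genes of protease inhibition and plasminogen activation, 3 rose and 0 fell (median 0.40). TFPI2, a secreted inhibitor of plasmin and other serine proteases, was among the 5 largest rises. TFPI2 was at 943, 132, 541, 1822 and 1689 CPM in DHA+Veh 1 to 5, against 190.2, 40.1, 25.3, 220.5 and 95.2 CPM in Veh+Veh 1 to 5. The groups overlapped, with DHA+Veh 2 below Veh+Veh 1 and 4, and the rise was 8.63-fold (3.11 ± 0.42 SE, adjusted p = 0.000167). TIMP1, the tissue inhibitor of metalloproteinases, was at 636, 272, 877, 1444 and 947 CPM in DHA+Veh 1 to 5, against 333, 187, 561, 649.7 and 303 CPM in Veh+Veh 1 to 5 (0.98 ± 0.22 SE, adjusted p = 0.0189). SERPINE2, an inhibitor of thrombin and plasminogen activators, rose at 0.85 ± 0.19 SE, adjusted p = 0.0158. The calls of MMP1 and TFPI2 held in all 15 leave-outs. Leaving out 1 library or experiment at a time ended the call of TIMP1 without DHA+Veh 3, 4 or 5, Veh+Veh 5 or experiment 3, 4 or 5 (adjusted p up to 0.135) and of SERPINE2 without DHA+Veh 3 or 5, Veh+Veh 5 or experiment 2, 3, 4 or 5 (adjusted p up to 0.111). The call of MMP3 ended in 8 of the 15 leave-outs, namely those of DHA+Veh 4 and 5, Veh+Veh 1 and 5, and experiments 1, 3, 4 and 5 (adjusted p up to 0.139).

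Contractile genes of activated stellate cells were mostly lower with DHA, with 16 of 19 tested below 0 and 3 called as falls (median -0.65). Above the median of all genes tested (-0.14) lay 4 of the 19, and 0.945% of all genes fell. CALD1 encodes caldesmon, an actin-binding regulator of contraction. CALD1 was at 194, 262, 112, 30.4 and 29.9 CPM in DHA+Veh 1 to 5, against 432, 475, 181, 86.0 and 74.7 CPM in Veh+Veh 1 to 5. The DHA library was lower in each experiment (-1.09 ± 0.19 SE, adjusted p = 0.00193), and the call held in all 15 leave-outs. ACTA2, the alpha smooth muscle actin that marks activation, was at 42.7, 26.8, 46.9, 40.2 and 13.7 CPM in DHA+Veh 1 to 5, against 39.4, 72.5, 169, 57.7 and 101 CPM in Veh+Veh 1 to 5, lower in 4 of 5 experiments (-1.28 ± 0.33 SE, adjusted p = 0.043). TAGLN (transgelin), another actin-binding protein, fell at -1.15 ± 0.25 SE, adjusted p = 0.0155. The ACTA2 call was lost under TMM, median-of-ratios and quantile scaling and under edgeR. When 1 library or experiment was left out, calls ended for TAGLN without DHA+Veh 3 or 5, Veh+Veh 4 or 5 or experiment 3, 4 or 5 (adjusted p up to 0.154). The call of ACTA2 ended in 11 of the 15 leave-outs, namely those of DHA+Veh 2, 3 and 5, Veh+Veh 2, 3, 4 and 5, and experiments 2, 3, 4 and 5 (adjusted p up to 0.267).

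Factors and targets of YAP and TEAD, which respond to cell tension, fell in 5 of 20 tested members (median -0.54). Of all genes tested, 0.945% fell. CCN2, the matricellular growth factor CTGF, was at 43.6, 225, 126, 33.6 and 37.0 CPM in DHA+Veh 1 to 5, against 218, 239.5, 474, 72.1 and 186 CPM in Veh+Veh 1 to 5 (-1.53 ± 0.27 SE, adjusted p = 0.00217). The groups overlapped and experiment 2 showed the smallest difference. VGLL3 and VGLL2, cofactors of TEAD, fell at -1.36 and -2.35 (adjusted p = 0.00976 and 0.00455), with VGLL2 at 0 in DHA+Veh 3, 4 and 5. ANKRD1, a tension-induced nuclear cofactor, and AJUBA, a LIM-domain adaptor named after its values were seen, fell at -1.49 and -0.97 (adjusted p = 0.0258 and 0.0329), and both were lost under each of the 3 other scalings and edgeR. Single leave-outs ended calls for CCN2 without experiment 3 (adjusted p up to 0.0627) and for VGLL3 without Veh+Veh 5 or experiment 3, 4 or 5 (adjusted p up to 0.112). Likewise, calls ended for VGLL2 without experiment 3 (adjusted p up to 0.0697). The calls of ANKRD1 and AJUBA ended in 10 and 11 of the 15 leave-outs, all including those of DHA+Veh 3, Veh+Veh 1, 2 and 5, and experiments 2, 3 and 4 (adjusted p up to 0.182).

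Of 30 of 34 genes for collagens and their processing, 1 fell (LOXL4, a lysyl oxidase, at -1.49 ± 0.39 SE, adjusted p = 0.0456, a call that every other scaling, edgeR and DESeq2 lost) and the median was -0.16. COL1A1, a chain of type I collagen, was at 465, 1599, 280.3, 329.8 and 1448 CPM in DHA+Veh 1 to 5, against 1053, 2052, 587, 333 and 1515 CPM in Veh+Veh 1 to 5 (-0.54 ± 0.23 SE, adjusted p = 0.247). It was the lower of the pair in 5 of 5 experiments, with differences near 0 in experiments 4 and 5. COL1A2, the other chain, was at 18.5, 31.0, 7.57, 9.79 and 14.3 CPM in DHA+Veh 1 to 5, against 86.0, 52.7, 31.9, 11.3 and 69.02 CPM in Veh+Veh 1 to 5 (-1.45 ± 0.42 SE, adjusted p = 0.0749), and COL3A1 was at -0.77 ± 0.27 SE, adjusted p = 0.154.

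Other matrix genes fell in 3 of 30 tested members (median -0.49). SPARC, a collagen-binding glycoprotein, was at 275, 674, 242, 158 and 250.2 CPM in DHA+Veh 1 to 5, against 586, 996, 627, 275 and 1024 CPM in Veh+Veh 1 to 5 (-1.17 ± 0.24 SE, adjusted p = 0.00827). MATN2 (matrilin-2), which links matrix fibrils, and EFEMP2 (fibulin-4), needed for elastic fibres, fell at -2.10 and -0.80 (adjusted p = 0.00305 and 0.024). Integrins, the matrix receptors, had 2 rises among 17 tested members. ITGA5, a subunit of the fibronectin receptor, was at 78.5, 84.0, 66.3, 110.4 and 73.4 CPM in DHA+Veh 1 to 5, against 40.7, 38.7, 41.6, 46.2 and 38.8 CPM in Veh+Veh 1 to 5, and these groups did not overlap (0.97 ± 0.22 SE, adjusted p = 0.0215). ITGA2, a subunit of a collagen receptor, rose at 1.86 ± 0.34 SE, adjusted p = 0.00281. EFEMP2 was lost under TMM scaling and by edgeR. Calls that ended in single leave-outs were those of SPARC without DHA+Veh 5, Veh+Veh 5 or experiment 3 or 5 (adjusted p up to 0.106) and of MATN2 without experiment 3 (adjusted p up to 0.0832). Likewise, calls ended for ITGA5 without DHA+Veh 2 or 4, Veh+Veh 1 or 5 or experiment 3, 4 or 5 (adjusted p up to 0.138) and for ITGA2 without experiment 3 or 5 (adjusted p up to 0.071). The calls of LOXL4 and EFEMP2 ended in 13 and 8 of the 15 leave-outs, all including those of DHA+Veh 3 and 5, Veh+Veh 3, 4 and 5, and experiments 3, 4 and 5 (adjusted p up to 0.258).

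**Figure D3:**
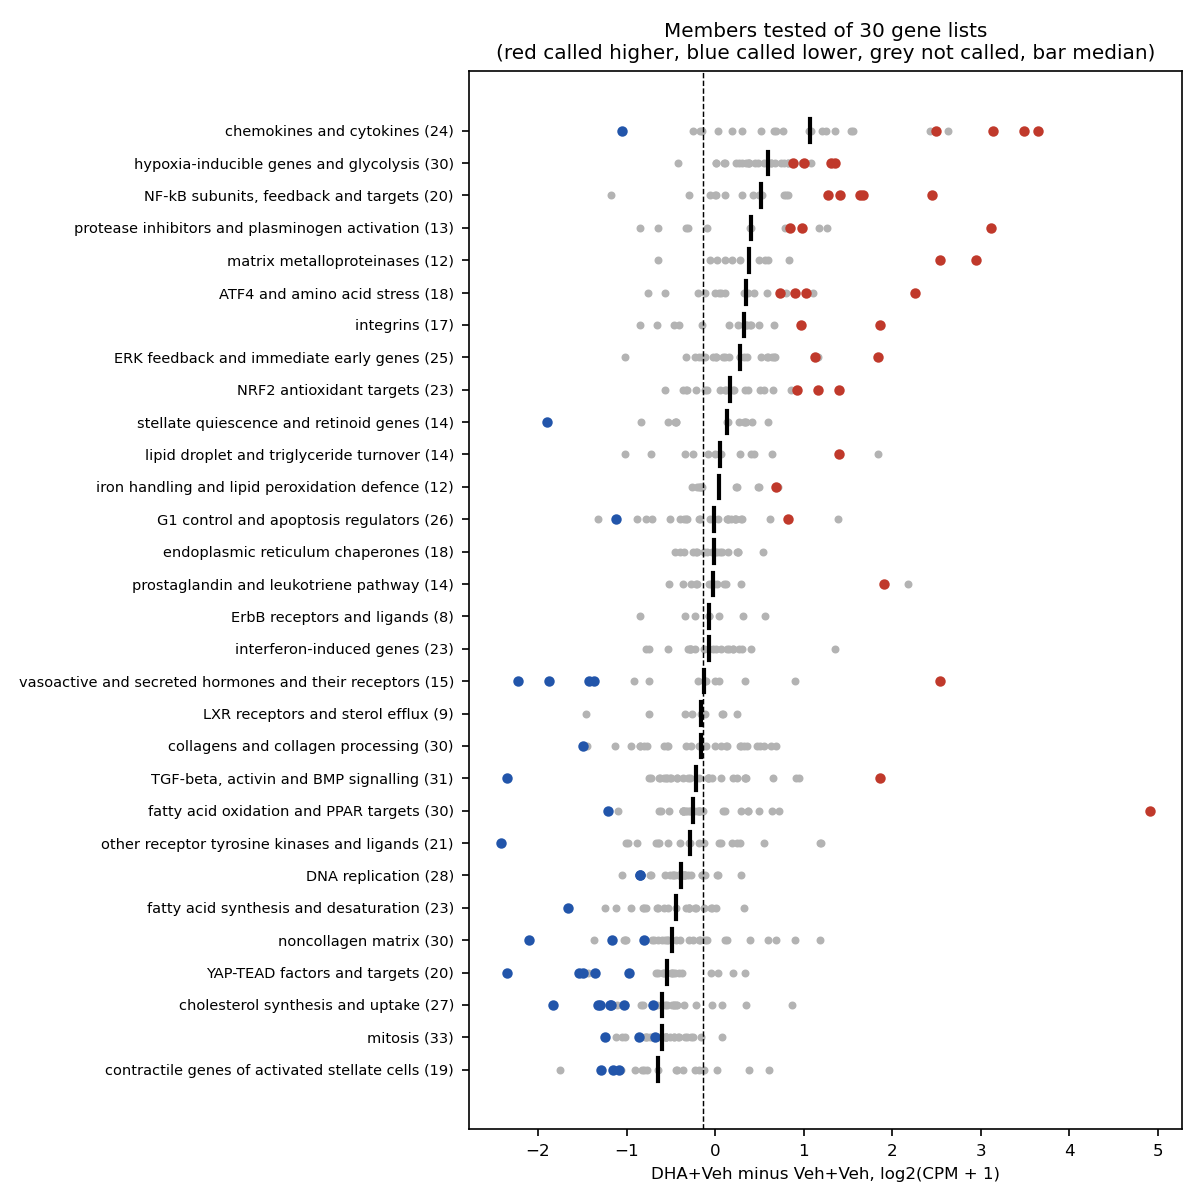
Difference of DHA+Veh minus Veh+Veh (horizontal axis, log2(CPM + 1)) for the tested members of 30 gene lists, with the number tested in brackets; red points were called higher, blue called lower and grey not called, black bars are list medians, and the dashed line is the median of all genes. The list medians run from -0.65 (contractile genes) to 1.07 (chemokines and cytokines).

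Genes induced by low oxygen, including the glycolytic enzymes, sat almost wholly above 0: 29 of 30 tested members did, 4 were called as rises and 0 as falls (median 0.59). The same count, 29 of 30, lay above the median of all genes tested (-0.14), and 0.595% of all genes rose. BNIP3 encodes a mitochondrial protein that promotes removal of mitochondria. BNIP3 was at 98.4, 54.0, 78.7, 102 and 102 CPM in DHA+Veh 1 to 5, against 44.6, 25.8, 17.5, 42.3 and 42.2 CPM in Veh+Veh 1 to 5. The groups did not overlap (1.36 ± 0.21 SE, adjusted p = 0.000637), and the call held in all 15 leave-outs. The glycolytic enzymes PGK1 and ENO2 rose at 1.01 and 0.88 (adjusted p = 0.00531 and 0.00562), and PFKFB4, which sets the level of an activator of glycolysis, rose at 1.30 ± 0.34 SE, adjusted p = 0.0448. PGK1 was level in experiment 2, at 369 CPM in DHA+Veh and 369 CPM in Veh+Veh. Leaving out 1 library or experiment at a time ended the call of PGK1 without experiment 3 or 4 (adjusted p up to 0.108) and of ENO2 without experiment 1 or 4 (adjusted p up to 0.0591). The call of PFKFB4 ended in 14 of the 15 leave-outs, namely those of DHA+Veh 1, 2, 3, 4 and 5, Veh+Veh 2, 3, 4 and 5, and experiments 1, 2, 3, 4 and 5 (adjusted p up to 0.249). PFKFB4 was also lost by edgeR.

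Antioxidant genes under the factor NRF2 had 3 rises among 23 tested members (median 0.17). HMOX1 encodes heme oxygenase-1, which degrades heme. HMOX1 was at 102, 115, 179, 231 and 325 CPM in DHA+Veh 1 to 5, against 61.5, 64.5, 49.8, 85.1 and 69.6 CPM in Veh+Veh 1 to 5. The groups did not overlap (1.40 ± 0.25 SE, adjusted p = 0.00284). SQSTM1, the autophagy receptor p62, and SLC7A11, the cystine importer that feeds glutathione synthesis, rose at 0.92 and 1.16 (adjusted p = 0.00734 and 0.0193). Of 12 tested genes of iron handling and defence against lipid peroxidation, ACO1, an aconitase that doubles as an iron sensor, rose at 0.68 ± 0.17 SE, adjusted p = 0.0315. When 1 library or experiment was left out, calls ended for HMOX1 without experiment 3 (adjusted p up to 0.0738) and for SQSTM1 without experiment 3 (adjusted p up to 0.0841). The calls of SLC7A11 and ACO1 ended in 9 and 12 of the 15 leave-outs, all including those of DHA+Veh 3 and 4, Veh+Veh 3, 4 and 5, and experiments 3, 4 and 5 (adjusted p up to 0.204).

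The ATF4 and amino acid stress list gave 4 rises among 18 tested members (median 0.35), and 0 of 18 endoplasmic reticulum chaperones passed. DDIT4 encodes an inhibitor of mTORC1 signalling that is induced by several stresses. DDIT4 was at 116, 48.4, 85.4, 159.6 and 1415 CPM in DHA+Veh 1 to 5, against 31.7, 21.1, 27.2, 38.9 and 53.9 CPM in Veh+Veh 1 to 5. The DHA+Veh 5 value was by far the highest of the 10 (2.26 ± 0.51 SE, adjusted p = 0.0176). DDIT3, the stress factor CHOP, was at 77.8, 41.1, 46.0, 71.5 and 169 CPM in DHA+Veh 1 to 5, against 40.1, 27.2, 19.9, 36.7 and 59.9 CPM in Veh+Veh 1 to 5 (1.02 ± 0.21 SE, adjusted p = 0.00927). PPP1R15A, which returns translation after stress, and SLC3A2, the shared chain of amino acid transporters, rose at 0.90 and 0.73 (adjusted p = 0.0258 and 0.0384). Single leave-outs ended calls for DDIT4 without DHA+Veh 5, Veh+Veh 4 or 5 or experiment 3 or 4 (adjusted p up to 0.125) and for DDIT3 without DHA+Veh 5 or experiment 3, 4 or 5 (adjusted p up to 0.0985). The calls of PPP1R15A and SLC3A2 ended in 10 and 12 of the 15 leave-outs, all including those of DHA+Veh 5, Veh+Veh 2, 4 and 5, and experiments 2, 3, 4 and 5 (adjusted p up to 0.198).

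Genes of cell division were mostly lower with DHA. In the mitosis list 32 of 33 tested members were below 0 and 3 passed as falls (median -0.61), and in DNA replication 25 of 28 were below 0 and 2 passed (median -0.38). Above the median of all genes tested (-0.14) lay 1 of the 33 and 4 of the 28, and 0.945% of all genes fell. TOP2A encodes the topoisomerase that untangles chromosomes. TOP2A was at 541, 1037, 164, 38.1 and 89.7 CPM in DHA+Veh 1 to 5, against 847, 1628, 347, 189.9 and 262 CPM in Veh+Veh 1 to 5. The level differed far more between experiments than between groups, and DHA was lower within each (-1.24 ± 0.24 SE, adjusted p = 0.00552). MKI67, the source of the Ki-67 antigen, was at 166, 322, 29.7, 15.6 and 41.0 CPM in DHA+Veh 1 to 5, against 192, 402, 54.5, 45.4 and 112 CPM in Veh+Veh 1 to 5 (-0.86 ± 0.22 SE, adjusted p = 0.0414), a call lost under TMM and median-of-ratios scaling, edgeR and DESeq2.

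BIRC5 (survivin), CDC6, which loads the replicative helicase, and GINS1, a part of that helicase, fell at -0.68, -0.84 and -0.85 (adjusted p = 0.0457, 0.0133 and 0.0259). CDKN1A, the cyclin-dependent kinase inhibitor p21, was at 357, 104, 342, 726 and 322 CPM in DHA+Veh 1 to 5, against 215, 70.9, 184, 377 and 160.3 CPM in Veh+Veh 1 to 5 and rose (0.82 ± 0.22 SE, adjusted p = 0.0466), while CDKN2C, the inhibitor p18, fell (-1.12 ± 0.25 SE, adjusted p = 0.0185). Both belong to a list of 26 tested genes of G1 control and apoptosis in which no other passed. BIRC5 and GINS1 were lost under each of the 3 other scalings and edgeR, and CDC6 by edgeR. Calls that ended in single leave-outs were those of TOP2A without experiment 3 or 4 (adjusted p up to 0.0627) and of CDC6 without DHA+Veh 4 or 5, Veh+Veh 5 or experiment 1, 3, 4 or 5 (adjusted p up to 0.133). Likewise, calls ended for CDKN2C without DHA+Veh 3 or 5, Veh+Veh 5 or experiment 3, 4 or 5 (adjusted p up to 0.143). The calls of MKI67, BIRC5, GINS1 and CDKN1A ended in 10, 10, 10 and 12 of the 15 leave-outs, all including those of DHA+Veh 3, 4 and 5, Veh+Veh 3 and 4, and experiments 3, 4 and 5 (adjusted p up to 0.303).

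Among secreted signals, STC1, GDF15 and TNFSF15 rose. STC1 (stanniocalcin-1), a secreted glycoprotein hormone, was at 790.2, 214, 216, 248 and 1105 CPM in DHA+Veh 1 to 5, against 305, 27.5, 26.9, 101 and 62.2 CPM in Veh+Veh 1 to 5. The groups overlapped, because Veh+Veh 1 was above 3 of the DHA+Veh values, and the rise was 5.79-fold (2.53 ± 0.41 SE, adjusted p = 0.000844). GDF15, a stress-induced member of the TGF-beta family, was at 174, 39.0, 58.1, 372 and 209 CPM in DHA+Veh 1 to 5, against 51.2, 11.8, 23.4, 61.0 and 49.0 CPM in Veh+Veh 1 to 5. It rose in 5 of 5 experiments (1.86 ± 0.29 SE, adjusted p = 0.000637), with the lowest DHA value in experiment 2. TNFSF15, a cytokine of the tumour necrosis factor family, was at 67.0, 48.1, 12.1, 7.94 and 22.1 CPM in DHA+Veh 1 to 5, against 19.0, 6.32, 0.778, 2.39 and 3.99 CPM in Veh+Veh 1 to 5. The rise was 2.20 ± 0.32 SE, adjusted p = 0.000513, and the calls of STC1, GDF15 and TNFSF15 held in all 15 leave-outs. GDF15 and MSTN (myostatin), which fell, were the 2 calls among 31 of 34 genes of TGF-beta, activin and BMP signalling (median -0.21). TGFB1 and TGFB2, which drive matrix production in stellate cells, were at 0.35 and -0.55 (adjusted p = 0.688 and 0.507).

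Among vasoactive and hormone genes, 4 of 15 tested fell beside the rise of STC1: NPPB (the natriuretic peptide BNP), APLN (apelin), EDN1 (endothelin-1) and ADRA1B, an adrenergic receptor named after its values were seen. Their differences were -2.23, -1.88, -1.36 and -1.42 (adjusted p = 0.0456, 0.043, 0.0456 and 0.0499). NPPB was at 1.06, 0.348, 5.75, 0 and 0 CPM in DHA+Veh 1 to 5, against 0.948, 13.5, 68.1, 1.3 and 8.56 CPM in Veh+Veh 1 to 5, and in experiment 1 the DHA library was the higher. PTGES, the synthase of prostaglandin E2, was the single call among 14 of 23 genes of its pathway. It was at 122, 38.7, 53.0, 224 and 73.4 CPM in DHA+Veh 1 to 5, against 14.0, 34.9, 23.0, 39.7 and 10.6 CPM in Veh+Veh 1 to 5 (1.90 ± 0.40 SE, adjusted p = 0.00972). The cyclooxygenase PTGS2 was at 18.9, 0, 1.21, 8.21 and 45.5 CPM in DHA+Veh 1 to 5, against 1.37, 0, 0, 3.26 and 0 CPM in Veh+Veh 1 to 5, short of a call (2.17 ± 0.62 SE, adjusted p = 0.07). The EDN1 call was lost under TMM, median-of-ratios and quantile scaling, and that of ADRA1B under those and edgeR. APLN was lost by edgeR, and NPPB and MSTN by DESeq2. Leaving out 1 library or experiment at a time ended the call of PTGES without Veh+Veh 5 or experiment 1, 3 or 5 (adjusted p up to 0.113). The calls of MSTN, NPPB, APLN, EDN1 and ADRA1B ended in 9, 12, 10, 13 and 12 of the 15 leave-outs, all including those of Veh+Veh 3 and 5, and experiment 3 (adjusted p up to 0.318).

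Of the listed receptor tyrosine kinases and their ligands, only KIT, the receptor for stem cell factor, passed the threshold. KIT was at 4.25, 14.3, 3.03, 0 and 0 CPM in DHA+Veh 1 to 5, against 16.4, 31.3, 9.34, 8.47 and 24.5 CPM in Veh+Veh 1 to 5. It fell in 5 of 5 experiments (-2.42 ± 0.44 SE, adjusted p = 0.00271), was the call among 21 tested genes of other receptor tyrosine kinases and ligands, and 0 reads in DHA+Veh 4 and 5 allow up to 0.794 and 1.95 CPM. When 1 library or experiment was left out, calls ended for KIT without experiment 4 (adjusted p up to 0.0591). None of 8 tested ErbB receptors and ligands passed. EGFR and ERBB2, which carry betacellulin signals, were at -0.07 ± 0.25 SE, adjusted p = 0.931 and at -0.34 ± 0.22 SE, adjusted p = 0.524, and EGFR lay above 0 under each of the 3 other scalings.

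Immediate early and feedback genes of the ERK pathway had 2 rises among 25 tested members (median 0.28). IER3, an early-response regulator of survival, was abundant in both groups. IER3 was at 10380, 2782, 4749, 12110 and 16610 CPM in DHA+Veh 1 to 5, against 2733, 1609, 1961, 3016 and 1801 CPM in Veh+Veh 1 to 5. The lowest DHA+Veh value, in experiment 2, was below the highest Veh+Veh value, in experiment 4, and the rise was 1.84 ± 0.28 SE, adjusted p = 0.000513. The call held in all 15 leave-outs. PHLDA1, another early-response gene, rose at 1.13 ± 0.23 SE, adjusted p = 0.0074, and its groups overlapped. Single leave-outs ended calls for PHLDA1 without Veh+Veh 5 or experiment 4 or 5 (adjusted p up to 0.0825). None of 23 tested interferon-induced genes passed, and RARRES2 (the adipokine chemerin), at -1.90 ± 0.47 SE, adjusted p = 0.0335, was the single call among 14 of 24 genes of stellate quiescence and retinoid handling. The call of RARRES2 ended in 10 of the 15 leave-outs, namely those of DHA+Veh 3, 4 and 5, Veh+Veh 2, 3, 4 and 5, and experiments 3, 4 and 5 (adjusted p up to 0.196). The medians of the interferon, chaperone, prostaglandin, ErbB and G1 lists lay between -0.07 and -0.01 and turned positive under median-of-ratios scaling, so no direction is given for them.

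Falls outside these lists included cell-surface and secreted proteins. OLFML3, a secreted olfactomedin-family protein, was at 8.08, 4.88, 6.96, 7.68 and 1.95 CPM in DHA+Veh 1 to 5, against 12.9, 25.5, 22.6, 20.6 and 24.8 CPM in Veh+Veh 1 to 5. The groups did not overlap (-1.76 ± 0.27 SE, adjusted p = 0.000637), and this call and that of PPFIA4, a liprin scaffold protein that rose (1.96 ± 0.34 SE, adjusted p = 0.00218), held in all 15 leave-outs. OXTR, the oxytocin receptor, was at 17.4, 43.2, 19.1, 2.65 and 3.25 CPM in DHA+Veh 1 to 5, against 97.2, 84.0, 57.6, 12.8 and 29.4 CPM in Veh+Veh 1 to 5. The fall was -1.93 ± 0.40 SE, adjusted p = 0.00827. Leaving out 1 library or experiment at a time ended the call of OXTR without Veh+Veh 5 or experiment 3, 4 or 5 (adjusted p up to 0.0724). ATOH8, a transcription factor, and CPA4, a carboxypeptidase, fell at -1.91 and -2.37 (adjusted p = 0.0239 and 0.00974), with the lowest values in DHA+Veh 5, the shallowest of the 10 libraries. When 1 library or experiment was left out, calls ended for CPA4 without DHA+Veh 5, Veh+Veh 5 or experiment 3 or 4 (adjusted p up to 0.109). The call of ATOH8 ended in 8 of the 15 leave-outs, namely those of DHA+Veh 5, Veh+Veh 2, 3 and 5, and experiments 2, 3, 4 and 5 (adjusted p up to 0.147).

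**Figure D4:**
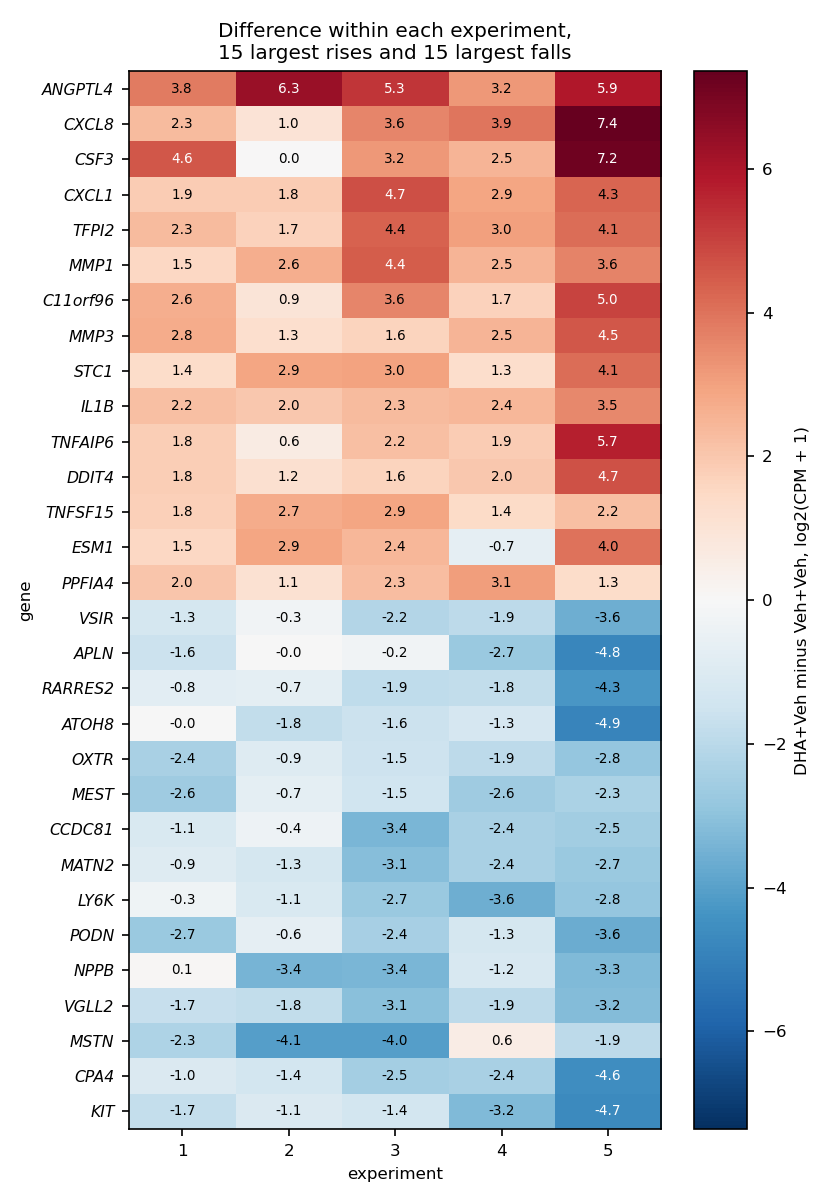
Difference of DHA+Veh minus Veh+Veh within each experiment (columns, colour scale in log2(CPM + 1), value printed in each cell) for the 15 largest rises and 15 largest falls that the naming rule took (rows). ANGPTL4 rose in every experiment, and CXCL8 ranged from 1.02 in experiment 2 to 7.36 in experiment 5.

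DHA was then set directly against oleic acid at the same dose. This comparison uses the same DHA+Veh libraries as the one against vehicle, and some genes were named for their distance from oleic acid. Its results are thus not separate evidence for the calls against vehicle. Of 15137 genes tested, 135 were higher and 360 lower in DHA+Veh than in OLA+Veh (0.892% and 2.38% of genes, 3.27% in all, limma as above), and 1 pair of fatty acids was compared. ANGPTL4 was at 18.8, 15.6, 4.54, 20.4 and 16.8 CPM in OLA+Veh 1 to 5, below every DHA+Veh library, and DHA exceeded oleic acid by 3.60 (95% interval 2.68 to 4.52, adjusted p = 4.59e-05). CXCL8 was at 15.0, 3.54, 0.825, 8.58 and 3.55 CPM in OLA+Veh 1 to 5, and DHA exceeded oleic acid by 3.99 (95% interval 2.67 to 5.30, adjusted p = 0.000559). For MMP1 the difference was 2.71 (95% interval 1.92 to 3.50, adjusted p = 0.000146), and for PLIN2 it was 1.29 (95% interval 0.72 to 1.86, adjusted p = 0.00912).

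Some falls were also seen against oleic acid. SCD was at 911, 595, 661, 567 and 620.2 CPM in OLA+Veh 1 to 5, and DHA minus oleic acid was -1.14 (95% interval -1.71 to -0.57, adjusted p = 0.0201). For HMGCS1 it was -1.33 (95% interval -1.88 to -0.79, adjusted p = 0.00482) and for CALD1 -1.35 (95% interval -1.73 to -0.97, adjusted p = 0.000132). TOP2A was at -1.59 (95% interval -2.08 to -1.10, adjusted p = 0.00029). In the mitosis list 5 of 33 tested genes were lower than with oleic acid and 0 higher, and in the hypoxia and glycolysis list 8 of 30 were higher and 0 lower. Some genes called against vehicle did not pass against oleic acid: the interval for SPARC was -1.31 to -0.33 (adjusted p = 0.0516) and for PPFIA4 0.46 to 1.86 (adjusted p = 0.0545), which does not show that the fatty acids act alike on them. Without the experiment block 2 genes were called, and leaving out 1 experiment gave 129 to 446, the fewest without experiment 4 or 5.

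**Figure D5:**
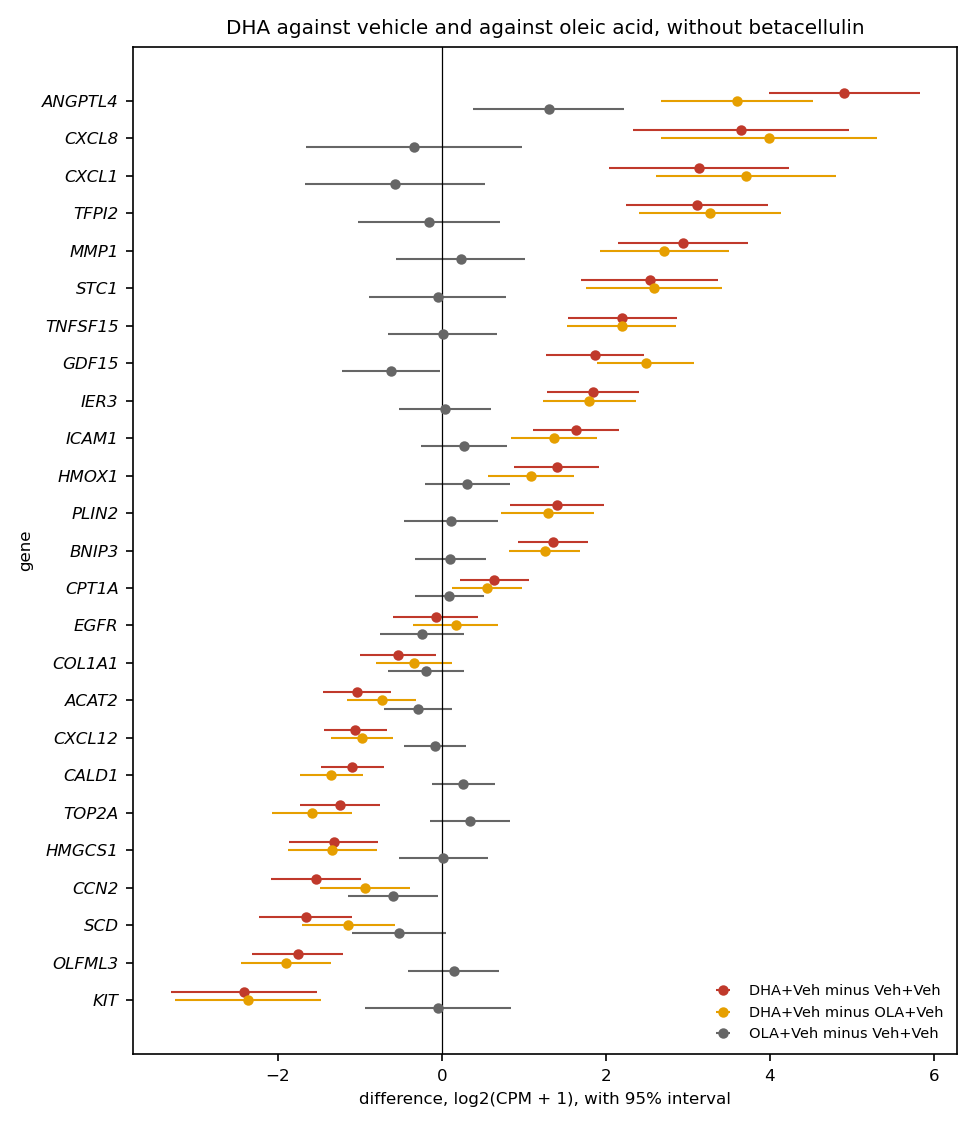
Differences on the log2(CPM + 1) scale (horizontal axis, points with 95% intervals from the limma fit) for 25 genes (rows): DHA+Veh minus Veh+Veh in red, DHA+Veh minus OLA+Veh in orange and OLA+Veh minus Veh+Veh in grey. For CXCL8 and MMP1 the red and orange intervals lie above 0 and the grey one crosses it, and ANGPTL4 in oleic acid was 1.30 above vehicle. The red and grey values share the Veh+Veh libraries, and the red and orange values share the DHA+Veh libraries.

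Oleic acid against the same vehicle libraries gave 0 calls by limma, edgeR and DESeq2, with 468, 431 and 566 genes at an unadjusted p under 0.05. ANGPTL4 in OLA+Veh minus Veh+Veh was 1.30 (95% interval 0.38 to 2.23, adjusted p = 1), and for SCD it was -0.52 (adjusted p = 1). These comparisons share their vehicle libraries, so their likeness is not measured.

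Whether the DHA difference depended on the absence of betacellulin was tested with the interaction term. No gene passed (0 of 15137, smallest adjusted p = 0.983), with 527 genes at an unadjusted p under 0.05, and edgeR and DESeq2 also gave 0, with 427 and 501 at that p. Against Veh+BTC, DHA+BTC gave 164 genes higher and 373 lower (1.08% and 2.46% of genes, 3.55% in all). With betacellulin the DHA difference of ANGPTL4 was 4.62, beside 4.90 without, and the interval of their difference was -1.58 to 1.02. For CXCL8 the values were 4.34 with and 3.65 without (interval -1.17 to 2.55), and for SCD -0.96 with and -1.66 without (interval -0.10 to 1.50). The intervals of ANGPTL4, CXCL8 and SCD each reach beyond 1 log2 unit in at least 1 direction. A change of that size may thus have gone undetected at this spread.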

How the data were processed

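RNA of LX2 cultures was measured with a QuantSeq 3′ library kit, per the labels' protocols. The authors deposited CPM values for 61597 genes, made, per the submitters' processing notes, with STAR 2.5.3a for alignment and HTSeq 0.6.0 for counting. Build, annotation and strand setting are not given in the sources used here. Overlapping and antisense genes and near-identical copies may thus share reads. Ensembl IDs were given symbols from a table that matched 99.8% of them. Whole reads were recovered from the CPM steps (100% of values within 0.01 of a whole read).

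The 15137 genes that reached 1 CPM in 5 or more of 30 libraries were tested with limma 3.58.1 (R 4.3.3, trend) on log2(CPM + 1). All 30 libraries and 6 groups entered, with the experiment as block, since the labels name it and each experiment holds every group. Deviations of the 5 DHA+Veh and Veh+Veh pairs from their group means correlated at 0.377 to 0.626. Across different experiments the values ran from -0.609 (DHA+Veh 2 with Veh+Veh 4) to 0.485 (DHA+Veh 2 with Veh+Veh 1), so these ranges overlap. No 2 libraries of a group agreed within sampling noise (smallest chi-square per degree of freedom 14.24). Tests were two-sided and adjusted over all genes (Benjamini-Hochberg), with a call at an adjusted p under 0.05, and every adjusted p is limma's unless another tool is named. Folds on log2(CPM + 1) understate the change of low genes. Whether the cultures of an experiment were separate from thawing on is not stated, and p-values cover only the spread seen among these experiments.

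Alternatives were other scalings, pseudocounts and filters, edgeR 4.0.16 and DESeq2 1.42.0 on the recovered reads, and leaving out each library or experiment. Subsets of experiments were added after seeing the data. A setting without a library keeps the other 29. Members and lists were chosen with earlier results of these data known. Genes named by rule were the 15 largest rises and falls among called genes that had a symbol, averaged 5 CPM or more in either group and moved alike in 4 of 5 experiments, up to 4 members of each list by p, a stated set, and those furthest from oleic acid. Some list members are not reported here. Tools were tested on simulated data.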

Additional observations from a re-analysis of the deposited data

Results flagged for a closer look

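In 8 of 236 groups of 5 libraries checked (called genes named here and 5 library measures), 1 library lay far from the other 4 on the log2(CPM + 1) scale. Chance alone gives about 5% of groups. Among DHA+Veh libraries, PPP1R15A was highest in DHA+Veh 5 at 583.7 CPM (next 183.2), CCDC81 highest in DHA+Veh 2 at 5.924 CPM (next 0.638) and SEMA3E highest in DHA+Veh 2 at 2.439 CPM (next 0). At the low end, IL1B was at 27.88 CPM in DHA+Veh 2 (next 159.2) and PODN at 0 CPM in DHA+Veh 5 (next 1.276). Among Veh+Veh libraries, Veh+Veh 1 was highest for NAMPT at 48.47 CPM (next 15.85), for NFKBIZ at 10.85 CPM (next 4.848) and for IL13RA2 at 0.2107 CPM (next 0). No gene passed the test of whether the DHA difference changed with betacellulin.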

How the results depend on the processing

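The 233 calls of DHA+Veh against Veh+Veh became 1 without the replicate block, 101 with no filter, 150 without the trend and 359 by DESeq2. They became 0 in experiments 1 and 2 alone, where few libraries leave low power. When 1 library or experiment was left out they became 38 to 273, with the fewest without experiment 3. The 495 calls against OLA+Veh became 2 without the replicate block, 311 by edgeR and 129 to 446 without 1 experiment. Counts under other pseudocounts, a stricter filter, other scalings and edgeR (179) stayed within 1.5 times of 233, and edgeR split its calls 113 higher to 66 lower. The OLA+Veh and interaction tests gave 0 calls under every alternative run. Of 113 called genes followed by name, none changed direction under these alternatives, and 56 lost their call with no filter, 31 without the trend, 26 by edgeR, 15 under TMM and 5 by DESeq2. EGFR, not called, was above 0 under the other scalings, edgeR and DESeq2. In all, 16 of the 80 called genes named by rule kept their call in all 15 leave-outs. The causes of these shifts were not tested. Depth limits genes near 1 CPM, since 0 reads allow up to 1.95 CPM in DHA+Veh 5. Intervals and floors cover counting error or the spread between libraries only.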

Other observations

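Genes of metal binding, polyamines and growth factor control, all chosen after their values were seen, also passed in DHA+Veh against Veh+Veh. IGFBP5, a secreted binder of insulin-like growth factors, fell in 5 of 5 experiments. IGFBP5 was at 97.2, 419, 212, 77.3 and 80.6 CPM in DHA+Veh 1 to 5, against 382, 631, 1072, 182 and 473 CPM in Veh+Veh 1 to 5. The groups overlapped, with a difference of -1.73 ± 0.26 SE, adjusted p = 0.000513, and the call held in all 15 leave-outs. SMOX, which oxidizes spermine, rose, and so did ODC1, the entry enzyme of polyamine synthesis. SMOX was at 35.5, 25.1, 31.2, 59.6 and 57.2 CPM in DHA+Veh 1 to 5, against 16.9, 9.61, 14.0, 27.6 and 12.0 CPM in Veh+Veh 1 to 5. DHA+Veh 2 lay below Veh+Veh 4, so these groups overlapped (1.34 ± 0.21 SE, adjusted p = 0.000844), and the call held in all 15 leave-outs. ODC1 was at 123, 84.7, 146, 183 and 144 CPM in DHA+Veh 1 to 5, against 94.7, 42.3, 61.9, 59.9 and 42.2 CPM in Veh+Veh 1 to 5 (1.19 ± 0.25 SE, adjusted p = 0.0102). Single leave-outs ended calls for ODC1 without DHA+Veh 5, Veh+Veh 5 or experiment 3, 4 or 5 (adjusted p up to 0.118).

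MT1F, MT1E and MT2A rose at 1.09, 1.03 and 0.89 (adjusted p = 0.0176, 0.0499 and 0.0499). They encode metallothioneins, which bind zinc and copper, and as near-identical copies they may have split reads. The calls of MT1E and MT2A were lost under quantile scaling. Calls that ended in single leave-outs were those of MT1F without DHA+Veh 5, Veh+Veh 4 or 5 or experiment 1, 4 or 5 (adjusted p up to 0.132). The calls of MT1E and MT2A ended in 14 and 13 of the 15 leave-outs, all including those of DHA+Veh 1, 3 and 5, Veh+Veh 1, 2, 3, 4 and 5, and experiments 2, 3, 4 and 5 (adjusted p up to 0.253). IL13RA2, a decoy receptor for interleukin-13, was at 1.7, 1.04, 3.63, 2.91 and 9.1 CPM in DHA+Veh 1 to 5, and at 0.211 CPM in Veh+Veh 1 and 0 in Veh+Veh 2 to 5. It reached 1 CPM in all 5 DHA+Veh libraries and in no Veh+Veh or OLA+Veh library, and so passed the filter through DHA, and these values are a description with no test. ZC3H12A, an endonuclease that degrades inflammatory messenger RNAs, was at 194, 32.8, 89.0, 262 and 666 CPM in DHA+Veh 1 to 5, against 47.4, 23.3, 31.1, 97.2 and 75.0 CPM in Veh+Veh 1 to 5 (1.70 ± 0.35 SE, adjusted p = 0.00796). Leaving out 1 library or experiment at a time ended the call of ZC3H12A without DHA+Veh 5 or experiment 3, 4 or 5 (adjusted p up to 0.0758).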
